A study of Mus musculus with 5 samples.

Results

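CpG islands are short stretches of DNA rich in CpG dinucleotides, and most of them are kept free of methylation. The 791 islands described here were neither empty nor full: they were chosen by their mean CpG methylation level over 5 mouse libraries, which had to be at least 5% and under 30%. They made up 5.71% of the 13845 islands on chromosomes 1 to 19 that all 5 libraries listed; 12689 islands lay under 5% and 365 at 30% or above. The levels that chose these islands describe them and support nothing about them. Just inside the lower bound were islands at Fstl3 (mean 5.004%) and within Evpl (5.009%), and just outside it one within Crocc (4.999%) and one at Gm13344 (4.995%). At the upper bound, islands within Gpatch2l (29.94%) and Nbeal2 (29.89%) were inside, and those within Itpr3 (30.18%) and at Pias4 (30.31%) were outside.

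Methylation was read by reduced representation bisulfite sequencing, in which DNA cut with the enzyme MspI is treated with bisulfite so that unmethylated cytosines are read as thymine. All 5 libraries came from C57BL6 mice or cells. They were a female embryonic stem cell line (female ESC), a parthenogenetic embryonic stem cell line (pESC), whose genome comes from an egg without sperm, primordial germ cells (PGC) sorted by SSEA1 beads from the gonads of E12.5 embryos, and PGC-like cells made from each line (ESC-PGCLC and pESC-PGCLC). Both stem cell lines grew on feeder cells in serum and LIF. For induction they passed through a medium with a lowered dose of the inhibitor PD0325901, then 46 h of epiblast-like culture with activin A and bFGF and 4 days with BMP4, LIF, SCF and EGF, after which cells with both CD61 and SSEA1 were sorted. Each stem cell group was 1 line; fetal sex and pooling of gonads were not given in the sources used here. Bead selection leaves the purity of the germ cells unmeasured.

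Each group had 1 library, so no value below has a replicate error and no test was possible. A difference is a difference between 2 libraries, not between 2 conditions. Read depth is unknown, because the deposited levels come without read counts, and a level alone carries no marker by which a cell type could be checked. Between 14350 (female ESC) and 14482 (ESC-PGCLC) islands were listed per library.

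In early development the methylation of most of the genome is erased in germ cells and set anew afterwards. Islands at imprinted genes carry methylation on the allele from 1 parent until that erasure, and islands of many genes used only in germ cells are methylated in other cells. Islands inside genes, away from the main start, are more often methylated than those at starts. A partial level in a bulk sample can come from 1 allele, from some of the cells, or from some of the CpGs, and these cannot be told apart here.

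The promoter stretches below show the DNA that lies in or beside 8 of these islands, chosen because their genes recur in the results: an imprinted gene (Plagl1), germ cell genes (Mael, Dazl, Sycp1, Hormad1, Ddx4), a zinc finger gene (Zfp560) and a fucosyltransferase gene (Fut4). Each gives the 250 bases before a RefSeq transcript start on build GRCm38.p6 (mm10), 5′ to 3′ on the gene's strand. Capitals mark each CpG, the pair of bases whose methylation was measured.
Plagl1, chr10:13090582-13090831, plus strand, 19 CpGs: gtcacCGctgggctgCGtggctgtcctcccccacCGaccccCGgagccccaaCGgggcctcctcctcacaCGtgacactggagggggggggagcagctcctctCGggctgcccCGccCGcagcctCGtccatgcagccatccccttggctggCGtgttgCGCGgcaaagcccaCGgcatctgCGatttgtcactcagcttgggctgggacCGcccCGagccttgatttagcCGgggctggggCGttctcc
Mael, chr1:166238745-166238994, minus strand, 18 CpGs: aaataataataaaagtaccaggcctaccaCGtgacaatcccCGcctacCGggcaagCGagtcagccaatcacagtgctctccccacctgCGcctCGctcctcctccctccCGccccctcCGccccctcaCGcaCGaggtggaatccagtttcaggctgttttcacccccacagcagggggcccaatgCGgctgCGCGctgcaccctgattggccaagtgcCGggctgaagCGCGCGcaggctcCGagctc
Dazl, chr17:50293621-50293870, minus strand, 20 CpGs: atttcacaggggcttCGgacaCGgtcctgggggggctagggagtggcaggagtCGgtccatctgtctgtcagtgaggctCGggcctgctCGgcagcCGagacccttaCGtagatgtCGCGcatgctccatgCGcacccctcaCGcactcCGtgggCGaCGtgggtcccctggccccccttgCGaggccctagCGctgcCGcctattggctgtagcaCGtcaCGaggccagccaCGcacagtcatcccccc
Sycp1, chr3:102936101-102936350, minus strand, 17 CpGs: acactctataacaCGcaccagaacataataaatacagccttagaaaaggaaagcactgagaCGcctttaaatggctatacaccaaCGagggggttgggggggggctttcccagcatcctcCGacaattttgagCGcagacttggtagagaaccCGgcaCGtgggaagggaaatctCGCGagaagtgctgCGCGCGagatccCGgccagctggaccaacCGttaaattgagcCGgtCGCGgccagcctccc
Hormad1, chr3:95559429-95559678, plus strand, 19 CpGs: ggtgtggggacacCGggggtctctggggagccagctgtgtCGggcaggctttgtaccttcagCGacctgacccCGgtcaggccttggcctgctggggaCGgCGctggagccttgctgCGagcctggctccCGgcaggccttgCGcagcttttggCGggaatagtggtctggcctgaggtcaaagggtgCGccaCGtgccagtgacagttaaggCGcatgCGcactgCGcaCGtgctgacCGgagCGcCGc
Ddx4, chr13:112652311-112652560, minus strand, 31 CpGs: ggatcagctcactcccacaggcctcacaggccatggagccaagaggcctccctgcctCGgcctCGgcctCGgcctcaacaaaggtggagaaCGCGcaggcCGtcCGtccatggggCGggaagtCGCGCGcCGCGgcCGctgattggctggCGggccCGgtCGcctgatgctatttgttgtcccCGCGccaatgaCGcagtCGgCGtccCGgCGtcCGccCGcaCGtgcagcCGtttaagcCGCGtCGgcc
Zfp560, chr9:20385159-20385408, minus strand, 19 CpGs: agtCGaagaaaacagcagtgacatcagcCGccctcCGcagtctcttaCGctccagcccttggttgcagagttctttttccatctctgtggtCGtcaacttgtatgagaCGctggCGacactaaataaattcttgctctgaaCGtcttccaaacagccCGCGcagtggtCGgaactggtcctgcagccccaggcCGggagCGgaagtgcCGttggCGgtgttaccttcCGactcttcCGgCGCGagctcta
Fut4, chr9:14752123-14752372, minus strand, 16 CpGs: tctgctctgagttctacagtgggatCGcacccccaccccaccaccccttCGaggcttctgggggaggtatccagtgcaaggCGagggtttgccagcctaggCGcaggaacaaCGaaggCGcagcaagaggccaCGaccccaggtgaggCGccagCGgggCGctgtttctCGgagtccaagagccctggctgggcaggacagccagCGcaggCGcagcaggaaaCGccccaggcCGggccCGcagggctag

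These stretches held between 16 CpGs (Fut4) and 31 (Ddx4). Over 120 promoter entries of 300 bases that overlapped an intermediate island (114 genes), the median was 19 CpGs and 62% G or C, against 25 CpGs and 65% over 9458 entries at islands under 5%, and 17 CpGs and 61.3% over 21 entries at islands of 30% or above. The letters CACGTG, the core bound by several basic helix-loop-helix factors, were in 13.3% of the entries at intermediate islands and in 10.9% of all 9599. Among 11 germ cell genes with an intermediate island and an entry, 5 had CACGTG (Ddx4, Hormad1, Mael, Rnf212 and Sycp1), against 11.7% of all 8349 genes with an entry at an island. The same 5 also held TCCCGC or its complement GCGGGA, a core bound by E2F factors, which stood in 8 of the 11 and in 46.7% of all genes. Germ cell genes at other islands had these letters too: TCCCGC was in 12 of 16 at islands under 5% and 3 of 6 at islands of 30% or above, and CACGTG in 3 of 16 and 3 of 6. The letters TGCCGC or GCGGCA, the core bound by the imprint-keeping protein ZFP57, were in 19.2% of the entries at intermediate islands, Plagl1 among them, and in 23.8% of all. Motifs were searched on both strands, CACGTG being its own complement, and overlapping matches were allowed; a match is a run of letters and not a shown binding site.

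Intermediate islands were short. Their median length was 343 bp (quartiles 254.5 and 533.5 bp), against 634 bp for islands under 5% and 274 bp for those of 30% or above. Of all islands under 300 bp, 16.9% were intermediate, and of those of 1000 bp and over, 2.13%. The longest were the 3454 bp island at Gata2, a blood and endothelial regulator, the 2887 bp island at Ajm1, an apical junction gene, and islands within Skor2 (2355 bp) and Pcdh17 (2210 bp). These 4 sat low in the range: Gata2 was at 5.63% in female ESC, 4.78% in pESC, 4.71% in PGC, 5.14% in ESC-PGCLC and 5.04% in pESC-PGCLC.

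Their place in the genome also set them beside the highly methylated islands more than the empty ones. Inside a protein-coding gene, over 1000 bp from any listed start or end, lay 383 of the 791 (48.4%), against 9.43% of islands under 5% and 68.8% of islands of 30% or above. At a coding gene start lay 170 (21.5%), against 66.0% of islands under 5%. A further 62 lay at 1 edge of a coding gene whose strand the tables used here do not give, 57 at a gene end, 19 at the start and 18 inside of a noncoding gene, and 82 outside genes. Seen from the genome's side, 20.9% of all islands inside coding genes were intermediate and 1.98% of those at coding gene starts.

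**Figure D1:**
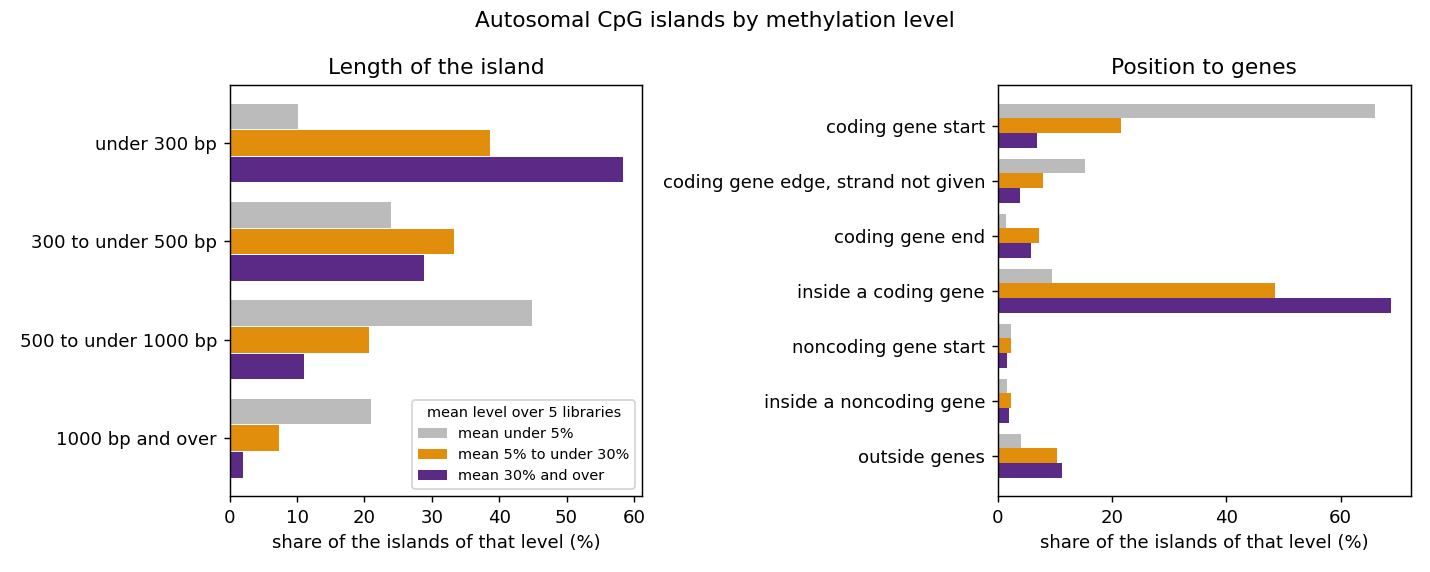
Share of the islands of each level class (x axis, percent) by length (left) and by position to RefSeq genes (right); grey, orange and purple bars are the 12689, 791 and 365 autosomal islands with a mean under 5%, of 5% to under 30%, and of 30% and over. Islands inside coding genes are 9.43%, 48.4% and 68.8% of the 3 classes.

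Female ESC stood highest. The mean over the 791 islands reached 14.2% in female ESC, with 12.1% in PGC, 11.9% in ESC-PGCLC, 11.9% in pESC and 11.6% in pESC-PGCLC, and the medians were 11.1%, 10.3%, 9.70%, 9.58% and 9.30%. The highest of the 5 levels was in female ESC at 51.1% of the islands, in PGC at 21.7%, in pESC-PGCLC at 10.2%, in pESC at 10.1% and in ESC-PGCLC at 6.83%. The lowest was in PGC at 34.5%, in pESC at 25.3%, in pESC-PGCLC at 19.5%, in ESC-PGCLC at 14.8% and in female ESC at 5.94%. When the levels of each library were scaled to an equal mean over all islands, female ESC was still the most frequent top library, but at 36.2%. The lead grew with the level: female ESC was the top library at 44.7% of islands with a mean of 5% to 10%, at 52.2% from 10% to 20% and at 68.5% from 20% to 30%. In islands under 5% it was the top library at 17.3%, and in islands of 30% or above at 81.9%.

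Single islands differed little between libraries. The median gap between the highest and the lowest library was 5.33 points, against 0.610 points under 5% and 14.9 points at 30% or above, and 659 of the 791 (83.3%) had a gap under 10 points. Length made less of a difference than level: from 10% to 20% the median gap was 7.05 points in islands under 300 bp and 5.73 points in those of 1000 bp and over, while it was 3.89 and 2.94 points from 5% to 10%. A gap of 25 points or more was seen at 13 of the 791 islands. Over all 13845 islands it was seen at 46, of which 33 were at 30% or above and 0 under 5%. Among the 13 were 4 at imprinted genes (the Zrsr1 pair, Peg10 and Plagl1).

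The place of PGC among the libraries differed with the position to genes. At the 170 coding gene starts the median was lowest in PGC, at 6.91%, against 10.1% in female ESC, 8.73% in pESC, 8.20% in pESC-PGCLC and 8.19% in ESC-PGCLC. Inside coding genes the median in PGC was the highest, at 12.97% against 12.6% in female ESC, 11.1% in pESC-PGCLC, 10.8% in pESC and 10.7% in ESC-PGCLC. By mean female ESC led there, at 14.9% against 14.1% in PGC, and female ESC was the top library at 44.9% of these islands. The gap of PGC to the mean of the other 4 libraries had a median of -1.69 points at starts and -0.12 points inside genes, where its quartiles were -1.89 and 3.19 points, so only the upper part of the intragenic islands was higher in PGC. PGC was the lowest library at 50% and the highest at 7.06% of the gene start islands, but the lowest at 26.4% and the highest at 31.1% of the intragenic ones. With levels scaled to an equal island mean these became 40.6% lowest at starts and 41.0% highest inside genes. Outside genes PGC was the lowest at 31.7% and the highest at 14.6%.

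The split was seen in the length classes under 1000 bp, but not in islands of 1000 bp and over. Inside genes PGC was the top library at 28.9% of islands under 300 bp, 33.9% from 300 to under 500 bp, 33.7% from 500 to under 1000 bp. Of the 21 intragenic islands of 1000 bp and over it was the top library at 4 and the lowest at 11 (52.4%), so these long islands were more often lowest than highest in PGC; of the 21 at starts it was the lowest at 14 (66.7%). At gene starts it was the top library at 2 of 47, 8 of 64, 1 of 38 and 1 of 21 islands of those length classes. In highly methylated islands the split was absent: PGC was the top library at 3.19% of 251 islands inside genes and 0 of 25 at starts, and the lowest at 66.9% and 64%. In islands under 5% it was the top library at 16.6% inside genes and 9.65% at starts.

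**Figure D2:**
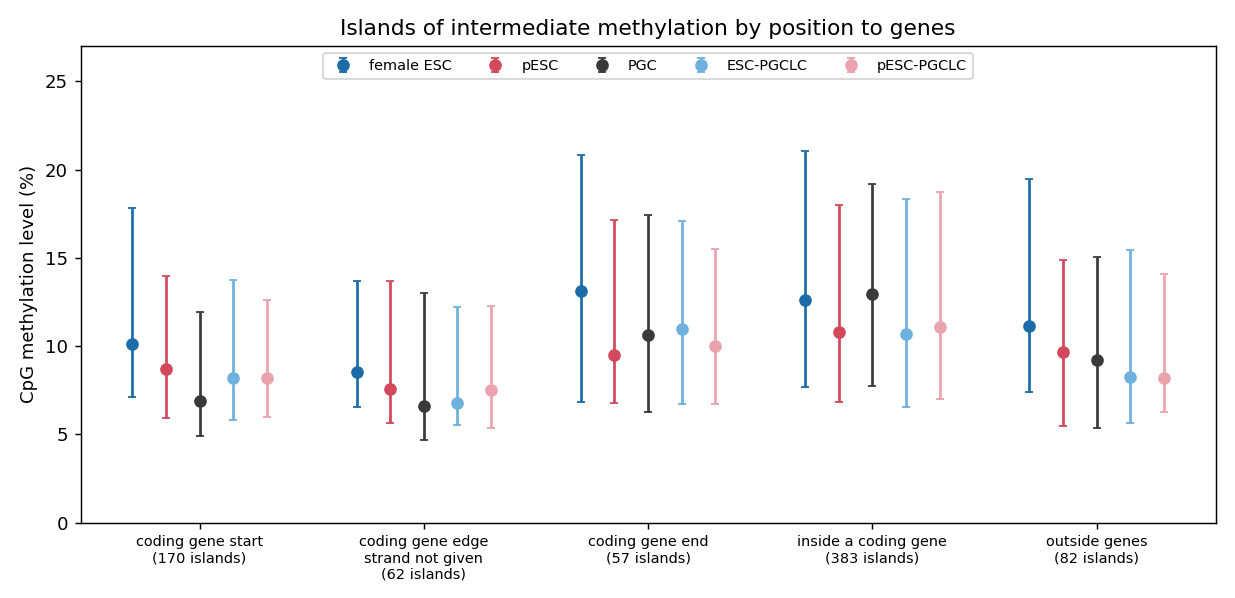
Median CpG methylation level (y axis, percent) of the intermediate islands by position to genes, 1 point per library; bars run from the lower to the upper quartile over islands and are not replicate errors. PGC is the lowest point at coding gene starts (6.91%) and the highest inside coding genes (12.97%).

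**Figure D3:**
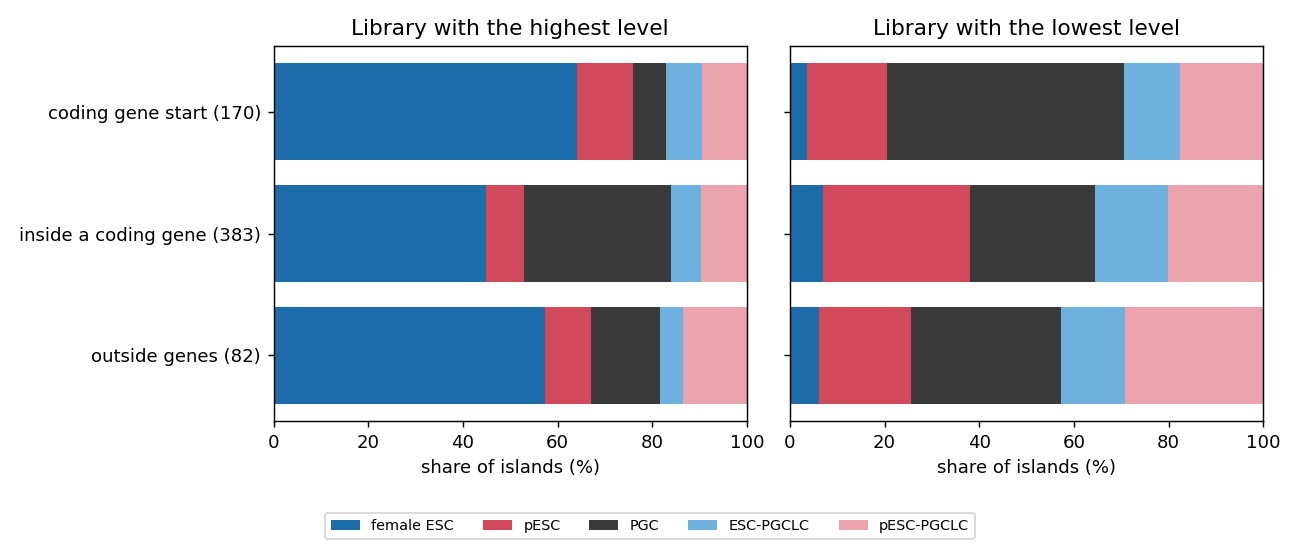
Share of intermediate islands (x axis, percent) in which each library had the highest (left) or the lowest (right) of the 5 levels, at coding gene starts, inside coding genes and outside genes, with the number of islands in brackets. PGC is the lowest library at 50% of gene start islands and the highest at 31.1% of intragenic islands, where female ESC is the highest at 44.9%.

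Some islands set 1 library apart from all others. A high level in 1 library also raises the mean that chose these islands, so some were chosen only through that library. Female ESC was at least 5 points above each of the other 4 libraries at 84 intermediate islands (10.6%, against 1.87% of all islands), 34 of them inside coding genes and 22 at starts. PGC was so at 27 (3.41%, against 0.289% of all islands), of which 20 lay inside coding genes and 0 at a coding gene start, and 25 were under 500 bp. In the other direction PGC was 5 points below all others at 5 (0.632%, against 0.571% of all islands). For pESC the counts were 8 above (1.01%, against 0.116% of all islands) and 10 below (1.26%, against 0.0722%). For ESC-PGCLC they were 3 above and 2 below (0.379% and 0.253%, against 0.0722% each), and for pESC-PGCLC 3 and 2 (against 0.0578% and 0.0722%).

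The islands at which PGC was 10 points above every other library numbered 5 (0.632%, against 0.0433% of all islands) and were chosen after their values were seen. They lay within Prrc1, Kdm2b (a histone demethylase gene), Rapgef2 (a Rap GTPase activator gene) and Tenm3 (a teneurin, a neuronal adhesion protein), and outside genes at chr10:130412260-130412541. The Tenm3 island (chr8:48228508-48229133, 626 bp) was at 14.4% in PGC and at 1.90% in pESC, 3.71% in ESC-PGCLC, 3.83% in female ESC and 4.06% in pESC-PGCLC. Its mean of 5.57% passed the lower bound of 5% only through the PGC level. At Prrc1 the level was 34.5% in PGC, 14.5% in pESC-PGCLC, 8.21% in ESC-PGCLC, 5.48% in pESC and 5.42% in female ESC. Of the 5, 4 were under 500 bp, and the Kdm2b and Rapgef2 islands, with 202 and 207 bp, were each listed at exactly 0 in 1 library (female ESC and pESC).

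The shores, the 2 kb on either side of an island, were a readout the choice did not use. Of the 791 islands, 666 had at least 1 shore listed in all libraries. Shores of intermediate islands were methylated at a median of 21.8% over the 5 libraries, between the 4.03% of islands under 5% and the 48.0% of islands of 30% or above, and 77.3% of these islands were below their shore. The shore median reached 25.4% in female ESC and 22.1% in pESC, and was 20.0% in PGC, 20.1% in pESC-PGCLC and 20.9% in ESC-PGCLC. PGC was thus the lowest library in the shores, although it was the second highest in the islands by median. Counted island by island, PGC was more often the lowest library (34.5% of the 791) than the highest (21.7%). Inside coding genes 73.9% of the shores were lower in PGC than in the mean of the other 4 libraries, with a median gap of -2.58 points. At gene starts 85% were, with -3.68 points. For islands under 5% these shares were 73.4% inside coding genes and 64.2% at starts. For islands of 30% or above they were 93.5% and 94.4%. The intragenic islands had a median gap of their own of -0.12 points, nearer to level than their shores. This was not particular to them: intragenic islands under 5% had -0.115 points, and their shores -0.805 points. For intragenic islands of 30% or above the gaps were -7.44 points in the islands and -6.69 points in the shores.

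**Figure D4:**
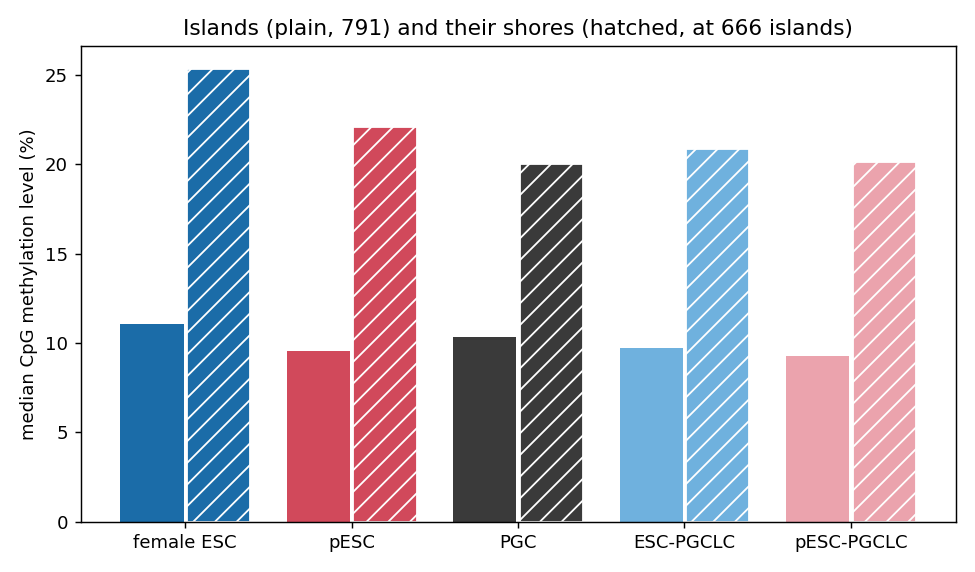
Median CpG methylation level (y axis, percent) of the 791 intermediate islands (plain bars) and of the shores of 666 of them (hatched bars) in each library. The shore median runs from 25.4% in female ESC to 20.0% in PGC, while PGC islands stand second by median, at 10.3%. Counted island by island, PGC is the lowest library at 34.5% of the 791.

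Cytosines outside CpG gave medians in the CHH context of 0.599% in pESC, 0.619% in female ESC, 0.670% in PGC, 0.713% in pESC-PGCLC and 0.761% in ESC-PGCLC over 743 of the islands. Such a level can hold both incomplete conversion and methylation outside CpG, which cannot be told apart here. The differences between libraries are well under 1 point, and their order is not that of the CpG levels.

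Imprinted genes with methylation of maternal origin gave the clearest pattern. Of 24 islands at or inside genes of this list, 7 were intermediate, 9 were at 30% or above and 8 under 5%; in all autosomal islands 5.71% were intermediate. Over the 7 the median was 28.7% in pESC, 22.7% in pESC-PGCLC and 22.6% in PGC, and 1.74% in female ESC and 2.47% in ESC-PGCLC. At 5 of the 7 the intermediate mean joined female ESC and ESC-PGCLC, both under 4%, with 3 libraries far above them. Below, biparental names only the female ESC line and its PGCLC, and not PGC, which came from embryos.

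A pair of neighbouring islands at Zrsr1, an intronless splicing-factor gene within Commd1, had this pattern and differed in size. The larger (chr11:22971975-22972993, 1019 bp) was at 41.0% in pESC, 43.0% in pESC-PGCLC and 35.1% in PGC, and at 1.60% and 1.61% in female ESC and ESC-PGCLC. Beside it, the 215 bp island at chr11:22973117-22973331 was at 31.1% in pESC, 21.5% in pESC-PGCLC and 22.6% in PGC, and at 0.871% and 1.76% in the biparental libraries. The shores of the smaller island ran higher than the island itself, at 44.4%, 45.2% and 38.1% against 2.69% and 2.77%. Parthenogenetic and fetal libraries did not overlap with biparental ones at any of these.

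The island shared by the starts of Peg10, a retrotransposon-derived placental gene, and Sgce, a sarcoglycan gene, spanned 1204 bp (chr6:4747209-4748412). It was at 39.1% in pESC, 34.3% in pESC-PGCLC and 33.1% in PGC, and at 3.25% and 3.22% in female ESC and ESC-PGCLC. Plagl1, whose promoter is shown above, was at 28.7%, 22.7% and 24.8% against 1.35% and 2.47% on its 767 bp island (chr10:13090533-13091299). The island within Grb10, a growth factor receptor adaptor gene (chr11:12025555-12026580, 1026 bp), was at 20.5%, 22.6% and 19.9% against 1.74% and 1.87%. Its shore was already methylated in the biparental libraries, at 16.7% in female ESC and 15.2% in ESC-PGCLC, and stood at 27.6%, 23.4% and 23.3% in the others. Nnat, a brain-expressed proteolipid gene, kept the order with a smaller gap: 25.5%, 24.8% and 19.9% against 15.1% and 11.7%. The island at the start of Inpp5f, an inositol phosphatase gene and the last of the 7, went the other way: 12.0%, 8.94% and 8.33% against 16.1% in both biparental libraries. Inpp5f also had a separate island among the highly methylated ones of this list, whose levels are not described here. Which of the Inpp5f islands carries the imprint was not tested, so the start island need not be an exception to the imprinted pattern.

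Across all 791, both parthenogenetic libraries were at least 10 points above both biparental ones at 5 islands (0.632%, against 0.108% of all islands). Over all 13845 islands there were 15, so the pattern was not particular to intermediate ones. All 5 intermediate islands were of the imprinted list, the Zrsr1 pair, Peg10, Plagl1 and Grb10, and in all 5 PGC lay above both biparental libraries too. These 5 passed the lower bound of 5% only through the libraries in which they were high. The opposite was seen at 3 islands, at the start of Mfsd9 and within Lrrc8d and Bsn, genes of which none is on the imprinted lists (0.379%, against 0.0578% of all islands). At 5 points the pair was above at 7 islands (0.885%, against 0.130%), 6 of them imprinted, and below at 12 (1.52%, against 0.332%), 0 of them imprinted. Paternally methylated imprinted genes had 2 intermediate islands out of 8: that within Dlk1 (chr12:109459745-109460028) was at 35.0% in female ESC and between 22.4% and 25.1% in the other libraries, and that within Zdbf2 was between 5.67% and 8.67%.

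Germ cell genes made up a small group of these islands. For them and the lists that follow, counts cover islands within 1000 bp of a gene start, or of an edge where the strand is not given; islands elsewhere in the genes are given apart. The meiotic list had 6 intermediate islands of 19, with 3 at 30% or above, and the piRNA and germ granule list 4 of 9, with 1 at 30% or above. Other testis and germ cell genes had 2 of 17. The share was 5.71% over all autosomal islands, but 1.98% at coding gene starts and 3.09% at coding gene edges whose strand is not given. Elsewhere in genes of these lists lay 1 intermediate island of 3, 0 of 1 and 2 of 4. The lists were drawn up with earlier results of these data known, so these shares describe them only. All 12 islands at starts or edges were lower in pESC than in female ESC, as were 79.1% of the 791 and 91.0% of highly methylated islands.

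Of the piRNA list, Mael, which guards the germline from transposons, was at 31.0% in female ESC and 30.4% in ESC-PGCLC, and at 22.5% in pESC, 21.8% in pESC-PGCLC and 22.9% in PGC (chr1:166238498-166238965). The levels thus fell into a biparental pair and a lower group of the other 3, which did not overlap. Dazl, an RNA-binding protein needed for germ cell fate, was at 25.5% in female ESC, 22.9% in ESC-PGCLC, 20.9% in pESC, 17.98% in pESC-PGCLC and 16.3% in PGC on its 1107 bp island (chr17:50292685-50293791). Its shore was far more methylated, from 50.9% in PGC to 67.4% in pESC. Henmt1, which adds the terminal methyl group of piRNAs, was at 18.03%, 15.2%, 12.4%, 14.5% and 11.5% in the same order of libraries. Ddx4, the germ cell RNA helicase also known as VASA, hardly differed: 10.1%, 9.58%, 8.09%, 9.20% and 10.2%. Its promoter held the most CpGs of the 8 shown.

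Among meiotic genes, Sycp1, the central filament of the synaptonemal complex, was at 31.9% in female ESC, 32.5% in ESC-PGCLC, 28.3% in pESC, 23.2% in PGC and 21.8% in pESC-PGCLC (chr3:102935375-102936230). Hormad1, of the meiotic chromosome axis, had a 202 bp island at 23.6% in female ESC, 15.7% in ESC-PGCLC, 14.7% in pESC, 13.8% in PGC and 10.1% in pESC-PGCLC. Majin, which ties telomeres to the nuclear envelope in meiosis, went its own way, with 27.8% in female ESC and 26.9% in PGC against 14.0%, 13.3% and 16.0% in pESC, ESC-PGCLC and pESC-PGCLC (chr19:6184251-6184665). Sycp2 lay between 14.3% and 19.4%, Rnf212, a crossover factor, between 13.8% and 19.2%, and the island shared by Smc1b, a meiotic cohesin gene, and Ribc2 between 11.6% and 15.0%. Rpl10l, a testis ribosomal protein gene, was at 25.8% in female ESC and between 17.8% and 21.4% elsewhere, and Boll, of the DAZ family, between 4.28% and 6.44%.

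Other lists held few intermediate islands at starts. Zinc finger genes had 7 of 235 (median 25% in female ESC and 13.1% in PGC), with Zfp560 at 34.6% in female ESC and 25.8% in pESC, then 17.7% in PGC, 21.3% in pESC-PGCLC and 22.0% in ESC-PGCLC. Zfp872 set female ESC apart, at 25% against 13.5% in pESC, 11.1% in ESC-PGCLC, 10.8% in PGC and 10.5% in pESC-PGCLC, and Zfp180 was at 26.1% in female ESC and 13.9% in PGC. Developmental regulators had 9 of 163 (5.52%). Over all islands the share was 1.98% at coding gene starts and 3.09% at coding gene edges whose strand is not given. Neurod2, a neuronal factor, was at 18.6% in female ESC and 8.91% in PGC. Lhx3, a pituitary factor, was at 10.6% and 5.23%, and Nkx2-5, a heart factor, at 16.3% and 10.6%. Hox genes had 2 of 33 at starts or edges. Hoxb1, the hindbrain Hox gene, was at 10.2% in pESC and between 2.59% and 6.45% in the others, and Hoxd12 between 4.61% and 7.68%. Clustered protocadherins had 2 of 10: Pcdhga2 was at 17.7% in PGC and lower in the others, at 11.7% in ESC-PGCLC, the lowest, and Pcdhac1 between 5.60% and 9.71%. Away from starts the shares were larger, as they were for all islands inside coding genes (20.9%): 23 of 74 islands inside or at the end of zinc finger genes were intermediate, 24 of 114 of developmental regulators, 5 of 28 of Hox genes (3 at Hoxd3, 1 each within Hoxd4 and Hoxb3) and 2 of 7 of protocadherins (within Pcdha3 and Pcdhb18).

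The germ cell specification and surface list had 1 of 6, Fut4, a fucosyltransferase gene. Its 1453 bp island (chr9:14750819-14752271) was lower in both PGCLC libraries, at 13.5% in ESC-PGCLC and 15.2% in pESC-PGCLC, than in PGC (19.1%), pESC (21.2%) and female ESC (24.7%). The lists of pluripotency genes (9 islands), methylation writers and erasers (13), fibroblast or feeder genes (6) and gonadal somatic genes (11) had 0 intermediate islands at starts or edges. Elsewhere in their genes the pluripotency list had 1 of 2, within Sall4, which the specification list also holds, and the gonadal somatic list 4 of 14 (1 each within Wt1 and Wnt4, 2 at Gata4). The methylation list had 0 of 4 and the fibroblast list 0 of 1.

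**Figure D5:**
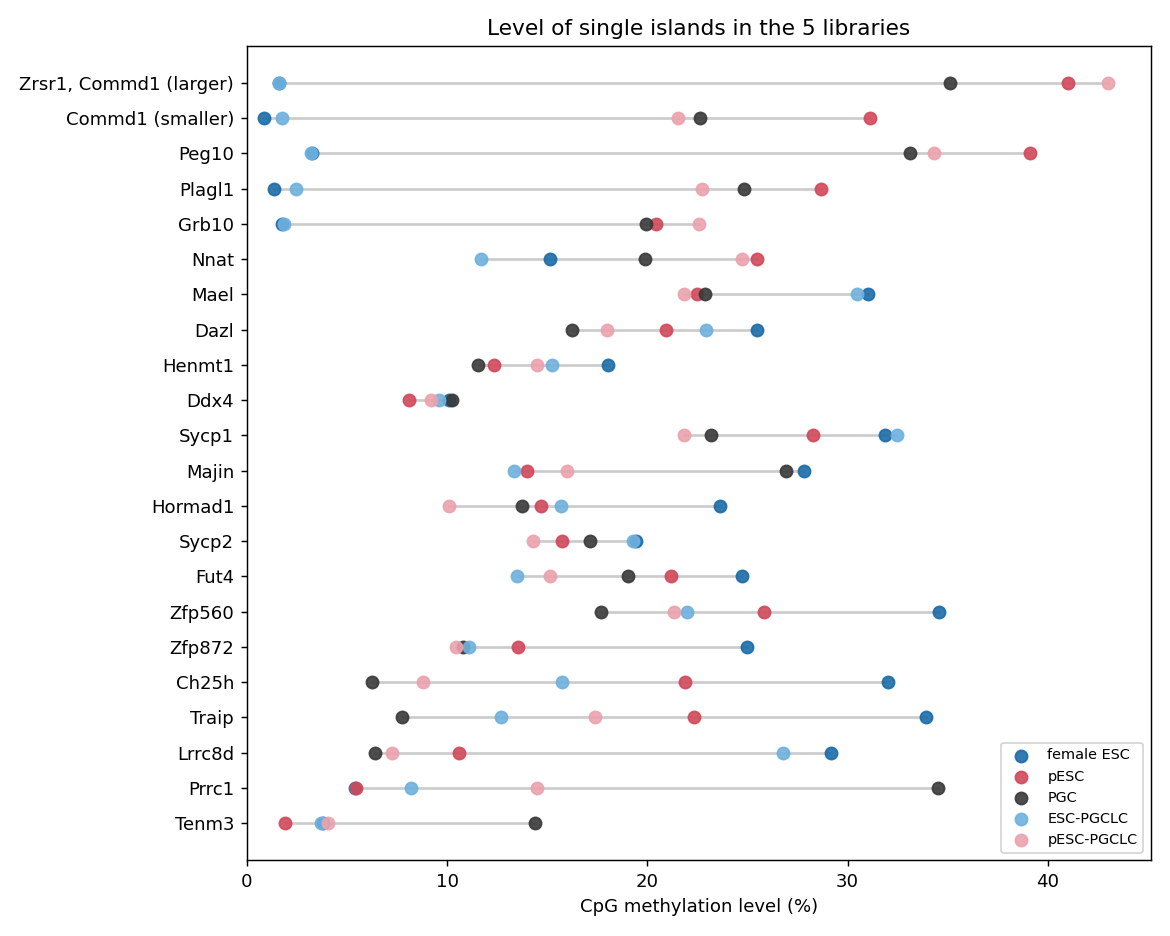
CpG methylation level (x axis, percent) of 22 intermediate islands, 1 point per library and no error, since each library is single; grey lines join the lowest and the highest level. At Zrsr1, Peg10, Plagl1 and Grb10 female ESC and ESC-PGCLC lie under 4% and the other 3 above 19%, while at Zfp872, Ch25h and Traip female ESC is the highest point.

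The comparisons below share libraries, so their values are not independent of each other. An island with a mean under 5% has little room for a gap of 10 points, and the choice of members therefore raises their share of such gaps; the shares over all 13845 islands and over the 365 highly methylated ones are given beside the counts, and nothing is read from the excess over the former.

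pESC was lower than female ESC at 626 of the 791 islands (79.1%), with a median difference of -1.99 points, against -0.077 points over all islands and -6.28 points over highly methylated ones. With levels scaled to an equal island mean the median was -1.01 points. Of the 791, 39 were at least 10 points lower (all islands 0.86%, highly methylated 21.4%) and 11 at least 10 points higher (all islands 0.181%, highly methylated 3.01%); with scaling these were 21 and 12. At 25 points, 1 was lower (all islands 0.0289%) and 5 higher (0.101%). The lower one was outside genes, at chr13:119836758-119837075, at 57.7% in female ESC, 15.4% in ESC-PGCLC, 13.8% in pESC, 10.97% in pESC-PGCLC and 4.70% in PGC. Other large differences were at Lrrc8d, a subunit of the volume-regulated anion channel (29.2% in female ESC, 26.8% in ESC-PGCLC, 10.6% in pESC, 7.28% in pESC-PGCLC and 6.40% in PGC), within Wnt3a, a Wnt ligand gene (-17.9 points), and within Apc2, a relative of the tumour suppressor Apc (-17.75 points). Of the 5 higher ones 4 were imprinted: the Zrsr1 pair, Peg10 and Plagl1.

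Induction in the biparental line gave ESC-PGCLC levels below female ESC at 607 islands (76.7%), with a median difference of -1.46 points, against 0.072 points over all islands and -6.11 points over highly methylated ones. With scaling it was -0.882 points. At least 10 points lower were 40 (all islands 0.881%, highly methylated 22.2%) and higher 4 (0.0578% and 1.10%), or 23 and 7 with scaling; at 25 points 2 were lower (all islands 0.0433%) and 0 higher (0.00722%). Traip, a replication-linked ubiquitin ligase gene, was at 33.9% in female ESC and 12.7% in ESC-PGCLC, with 22.3% in pESC, 17.4% in pESC-PGCLC and 7.76% in PGC. Ch25h, the cholesterol 25-hydroxylase gene, was at 32.0% in female ESC and 21.9% in pESC, and lower at 6.25% in PGC, 8.81% in pESC-PGCLC and 15.7% in ESC-PGCLC. Among the islands above female ESC were one within Tfap2b, a transcription factor gene (15.2% against 5.00%), and one at an edge of Nefm, a neurofilament gene, where ESC-PGCLC was the top library at 21.8% and the others lay between 8.16% and 13.6%. Within Sall4, a regulator of pluripotent and germ cells, ESC-PGCLC was also on top, at 29.4% against 20.0% to 22.2%.

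Induction in the parthenogenetic line gave a median difference of -0.0336 points between pESC-PGCLC and pESC (all islands 0.140, highly methylated -3.86), with 400 islands lower and 391 higher. Counts at 10 points were 11 lower (all islands 0.325%, highly methylated 9.04%) and 8 higher (0.0722% and 0.274%), and at 25 points 1 lower (0.0217%) and 1 higher (0.00722%). Ch25h differed by -13.05 points. The island at the noncoding gene 2600014E21Rik was at 20.0% in pESC and between 2.34% and 7.35% in the other 4 libraries, and that within Hs3st3a1, a heparan sulfate sulfotransferase gene, at 23.6% in pESC and 10.4% in pESC-PGCLC. Higher in pESC-PGCLC were islands within Bend3, a chromatin protein gene (22.9% against 11.05%), and Hspg2, the perlecan gene (23.0% against 12.3%); in both PGC (22.6% and 24.5%) was beside pESC-PGCLC.

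ESC-PGCLC was above PGC at 452 islands (57.1%). The median difference was 0.489 points, against 0.185 over all islands and 6.59 over highly methylated ones, and turned to -0.385 with scaling. At 10 points 19 islands were lower in ESC-PGCLC (all islands 0.246%, highly methylated 3.84%) and 8 higher (0.787% and 27.7%), and at 25 points 5 lower (0.0867%) and 0 higher (0.00722%). The lower ones included the imprinted Zrsr1 pair, Peg10, Plagl1 and Grb10, with differences from -33.5 to -18.0 points, and the Prrc1 island with -26.3 points. Higher were Lrrc8d by 20.4 points, Nefm by 13.6 points and an island outside genes at chr4:154802136-154802612 (29.9% against 17.997%).

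pESC-PGCLC and PGC differed by a median of 0.00426 points (all islands 0.172, highly methylated 3.18), or -0.578 with scaling, with 396 islands higher and 395 lower. At 10 points 12 were lower in pESC-PGCLC (all islands 0.152%, highly methylated 2.19%) and 4 higher (0.173% and 5.21%), and at 25 points 2 lower (0.0217%) and 0 higher (0%). The imprinted islands differed by between -2.12 points (Plagl1) and 7.89 points (the larger Zrsr1 island). The 2 past 25 points were the short islands within Kdm2b and Rapgef2. Lower ones also were Prrc1 (-20.03 points), Majin (-10.9 points) and Tenm3 (-10.3 points); higher ones were within Tas1r1, a taste receptor gene (28.3% against 16.1%), and at the end of Cckbr, a cholecystokinin receptor gene (32.3% against 20.9%).

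Between the PGCLC, pESC-PGCLC was lower at 439 islands (55.5%), with a median difference of -0.227 points (all islands -0.00986, highly methylated -3.64). At 10 points 9 were higher in pESC-PGCLC (all islands 0.173%, highly methylated 3.84%) and 8 lower (0.339% and 10.7%), and at 25 points 2 higher (0.0795%) and 0 lower (0%). The 2 were the larger Zrsr1 island and Peg10. Lower in pESC-PGCLC were Lrrc8d (-19.5 points), the island outside genes at chr3:54810973-54811405 (20.3% against 34.0%), Naa11, an acetyltransferase retrogene (13.4% against 25.6%), and Sycp1 (-10.6 points). The Lrrc8d shore had the pattern of its island: 32.4% in female ESC and 25% in ESC-PGCLC against 8.78% in pESC-PGCLC, 7.69% in pESC and 5.46% in PGC.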

How the data were processed

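Reduced representation bisulfite sequencing libraries of 5 mouse samples, 1 per group, were used. Per the submitters' processing notes Bismark 0.16.3, Bowtie2 and the build mm10 were used; trimming, coverage filters and the drawing of islands: not given in the sources used here. Each region of a cytosine context has 1 deposited fraction (0 to 1) of methylated cytosine and no counts; levels are printed as percent. Samples were grouped by the cell type in the labels.

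Islands of class CGI in the CG context, listed in all 5 libraries on chromosomes 1 to 19, were taken. Deposited starts count from 0: all 2864 island starts inside a promoter entry opened with CG when read so, and 0 when counted from 1; positions are printed counted from 1. RefSeq genes (GRCm38.p6) gave positions within 1000 bp; 16457 of 20665 coding genes had a listed start and strand, and none on chromosome 18 did. Islands were counted at differences of 10 and 25 points, a size and not a test. Shores within 100 bp of an island were averaged. The members and gene lists were chosen with earlier results of these data known. Genes named were the list members with the widest range, the islands of at least 300 bp, listed at neither 0 nor 1, with the largest differences, the 4 longest and those at the bounds. One gene under this rule is not reported here. Counting was tested on simulated data. Alternatives were other choices of members, length, scaling, removal of the CHH level and size. Python 3.11.15, pandas 2.3.3 and numpy 2.4.6 were used.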

Additional observations from a re-analysis of the deposited data

Results flagged for a closer look

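The island at the start of Niban1 (chr1:151571314-151571755) moved in opposite directions on induction in the 2 lines, by at least 10 points each. It was at 0% in female ESC and 11.1% in ESC-PGCLC, and at 11.8% in pESC and 0% in pESC-PGCLC, with 5.26% in PGC. The change in the parthenogenetic line minus that in the biparental line was -22.9 points. This difference was not tested, since each group has 1 library; the island is 1 of 7 listed at exactly 0 or 1 in some library, and its read depth is unknown.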

How the results depend on the processing

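No paired analysis was possible because each group has 1 library. Read depth is unknown, and no setting measures it. Every alternative was recomputed over the 6 comparisons in the order of the report (pESC and ESC-PGCLC against female ESC, pESC-PGCLC against pESC, ESC-PGCLC and pESC-PGCLC against PGC, pESC-PGCLC against ESC-PGCLC). Of 108 alternative values 72 stayed within 1.5 times the count, 0.5 points of the median or the binomial interval of the share. That interval runs over islands of single libraries. It is a yardstick only and does not measure the spread between libraries. With levels rescaled to equal island means, the first comparison had 21 islands lower and a median of -1.01 points, the second had 7 higher, 23 lower and -0.882 points, and the medians against PGC reversed to -0.385 and -0.578 points. When members were chosen by the other 3 libraries, the median of pESC-PGCLC against pESC reversed to 0.0332 points. In islands of at least 300 bp the first had 18 lower, the second 2 higher and 21 lower, the third 2 and 7, the fourth 4 and 10, the fifth 2 and 4, and the last 5 lower. A lower bound of 10% left 2 higher in the second and 7 lower in the third, and without islands listed at exactly 0 or 1 the second had 2 higher. At 25 points the higher and lower counts were 5 and 1, 0 and 2, 1 and 1, 0 and 5, 0 and 2, and 2 and 0. Rescaling was also applied to 3 shares chosen after seeing the data: female ESC as the top library fell from 51.1% to 36.2%, PGC as the top library inside coding genes was 41.0% against 31.1%, and PGC as the lowest at gene starts 40.6% against 50%. The causes of these changes were not tested.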

Other observations

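Intermediate islands were spread unevenly over chromosomes: they made up 8.95% of the islands of chromosome 7, 7.15% of chromosome 10 and 7.13% of chromosome 8, against 3.11% of chromosome 13 and 3.54% of chromosome 19. Of the 791, 709 were tied to 672 genes, and 34 genes had more than 1 intermediate island. Bsn, a scaffold protein of the synapse, Zfhx3, a neuronal homeobox factor, and Hoxd3 had 3 each.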
